A study of Schizosaccharomyces pombe with 8 samples.

Results

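The 6 genes described here encode the glucose receptor of fission yeast, the 3 subunits of its heterotrimeric G protein and 2 proteins that act with them upstream of adenylate cyclase. They were taken by systematic name as git3 (SPCC1753.02c), gpa2 (SPAC23H3.13c), git5 (SPBC32H8.07), git11 (SPBC215.04), git1 (SPBC21C3.20c) and git7 (SPBC36.12c), and all 6 were measured among 4940 genes. Transcript levels came from 1-colour arrays of 4 Schizosaccharomyces pombe strains, with 2 arrays per strain, each from a separate culture in complete YES medium at 30 °C and taken after 8 hours, in logarithmic growth. The wild type was PR110, of mating type h+, with leu1-32 and ura4-D18. The other strains carried the same mating type and markers with a single disruption each, pka1::ura4 in YMP37 (Δpka1), cgs1::ura4 in YMP41 (Δcgs1) and ppt1::kanMX6 in OG1 (Δppt1). The labels do not say how much of each gene was replaced or how many clones were made.

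In fission yeast, external glucose is sensed by Git3, a receptor of the 7-transmembrane class, which activates a G protein made of the α subunit Gpa2, the β subunit Git5 and the γ subunit Git11. Activated Gpa2 stimulates adenylate cyclase (Cyr1), and the cAMP made binds Cgs1, the regulatory subunit that holds protein kinase A (PKA) inactive, and so frees the catalytic subunit Pka1. Git1, a protein with a C2 domain, and Git7, of the Sgt1 family of co-chaperones, are also needed for adenylate cyclase activation. The git genes owe their name to mutants whose fbp1 transcription was insensitive to glucose, since active PKA keeps fbp1 repressed. The ppt1 disrupted here (SPAC56F8.04c) is a gene of coenzyme Q synthesis, outside this pathway.

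The labels were first set against the disrupted genes. In its own disruptant cgs1 read 1404 and 1360, against 20232 and 28238 in wild type. Likewise ppt1 read 2497 and 1910 in its disruptant, against 32691 and 41517. Signal for pka1 went against its label, at 38387 and 46832 in Δpka1 and 28743 and 34715 in wild type, so these are called the arrays labelled Δpka1, and every direction drawn from them rests on that label. The marker ura4 read from 32716 to 44787 in the arrays labelled Δpka1 and in Δcgs1 and at most 1627 elsewhere, so a comparison of either with wild type cannot be told apart from one of ura4 itself. The titles place the first arrays of all strains on 1 slide and the second arrays on another, and array medians were 21210 to 22148 on slide 1 and 24677 to 25548 on slide 2. The array position of the 3 disruptants of slide 2 differs between title and deposited table name, and the marker and disrupted genes there (ura4, cgs1, ppt1) follow the strain labels.

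The receptor gene git3 was about 1.94 times as high in the arrays labelled Δpka1 as in wild type and lay close to wild type in Δcgs1 and Δppt1. In wild type its signal was 21526 and 27432, in Δcgs1 22747 and 25265, in Δppt1 21439 and 25255, and in the arrays labelled Δpka1 44180 and 50148. Both arrays labelled Δpka1 lay above all 6 other arrays, and the arrays of the 3 other strains overlapped each other. The rise against wild type was 0.95 on the log2 scale (SE 0.15, adjusted p = 0.0129 by limma over all genes), and it was 1.04 within slide 1 and 0.87 within slide 2. Set against Δcgs1, which carries ura4 as well, git3 was higher by 0.97 (SE 0.15, adjusted p = 0.0108), and against Δppt1 by 1.02 (SE 0.15, adjusted p = 0.00809). These 3 calls were lost without replicate 2 of the arrays labelled Δpka1 (adjusted p = 0.0857, 0.0741 and 0.0596), although the differences were then still 0.86, 0.88 and 0.92. That against Δcgs1 was also lost without replicate 1 of Δcgs1 (0.90, adjusted p = 0.0761) and that against Δppt1 without replicate 1 of Δppt1 (0.90, adjusted p = 0.0573). The order of the mean levels was Δpka1 label, wild type, Δcgs1, Δppt1, and the last 3 did not differ beyond their spread. The 95% interval of the difference from wild type was -0.39 to 0.35 in Δcgs1 and -0.43 to 0.31 in Δppt1. RNA came from whole cultures, where a change in some cells and a change in RNA per cell cannot be told apart.

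The G protein β subunit gene git5 was 1.96 times as high in the arrays labelled Δpka1 as in wild type. In wild type its signal was 14691 and 19985, in Δcgs1 16683 and 19322, in Δppt1 18215 and 23912, and in the arrays labelled Δpka1 28761 and 39065. The lower of the arrays labelled Δpka1 lay above the highest of the other 6. The rise was 0.97 on the log2 scale (SE 0.22, adjusted p = 0.0487), and 0.97 within each slide. That call was narrow and was lost when any 1 of the 8 arrays was left out, with adjusted p from 0.0555 to 0.196 and differences from 0.75 to 1.19. It was also lost without the lowest 20% of signals (adjusted p = 0.0664) and with only those 2 strains in the fit (adjusted p = 0.0732). With slide as a block in the model, adjusted p = 0.000641, and values from that model are called slide-blocked. Against Δcgs1 the difference was 0.90 (SE 0.22, adjusted p = 0.0530, slide-blocked 0.000746). Against Δppt1 it was 0.68 (SE 0.22, adjusted p = 0.127, slide-blocked 0.00169). Signal in Δppt1 exceeded wild type by 0.31 on slide 1 and 0.26 on slide 2, and was not called (0.28, SE 0.22, adjusted p = 0.953, slide-blocked 0.0549).

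The G protein α subunit gene gpa2 had the same order of strains as git5, with smaller differences between the arrays labelled Δpka1 and the other strains. In wild type signal for gpa2 was 28462 and 34208, in Δcgs1 28502 and 38034, in Δppt1 34603 and 41354, and in the arrays labelled Δpka1 41731 and 51106. The arrays labelled Δpka1 lay above all 6 others, those of Δppt1 lay above both of wild type, and those of Δcgs1 overlapped wild type and Δppt1. The difference between the arrays labelled Δpka1 and wild type was 0.57 (SE 0.19, adjusted p = 0.132, slide-blocked 0.00145). That from Δcgs1 was 0.49 (SE 0.19, adjusted p = 0.172, slide-blocked 0.00207). In Δppt1 the difference from wild type was 0.28 within slide 1 and 0.27 within slide 2 (SE 0.19, adjusted p = 0.889, slide-blocked 0.0337). The arrays labelled Δpka1 exceeded Δppt1 by 0.29 (SE 0.19, adjusted p = 0.460, slide-blocked 0.0113). The order was thus Δpka1 label, Δppt1, Δcgs1, wild type, and the last 2 did not differ beyond their spread (0.08, 95% interval -0.37 to 0.53).

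The γ subunit gene git11 was not called in any of the 5 comparisons, with or without slide as a block. In wild type its signal was 5074 and 6097, in Δcgs1 5292 and 5274, in Δppt1 5855 and 6066, and in the arrays labelled Δpka1 5691 and 5419. The other 6 arrays all lay between those of wild type, and the arrays labelled Δpka1 lay above both of Δcgs1 and below both of Δppt1. The difference between the arrays labelled Δpka1 and wild type was -0.0024 (95% interval -0.26 to 0.26, adjusted p = 0.999), with 0.17 on slide 1 and -0.17 on slide 2, and the sign turned with median centring (0.0051), quantile normalization (0.10) and cyclic loess normalization (0.14). Git5 and Git11 form a dimer, yet within each array git5 gained 0.80 on slide 1 and 1.14 on slide 2 over git11 on the log2 scale between wild type and the arrays labelled Δpka1. For git3 the gain over git11 was 0.87 and 1.04, and for gpa2 it was 0.39 and 0.75. These differences between genes were not tested. Against Δcgs1 the difference of git11 in the arrays labelled Δpka1 was 0.07 (SE 0.11, adjusted p = 0.791), and it was called higher after quantile normalization (0.25, adjusted p = 0.0196) and cyclic loess normalization (0.29, adjusted p = 0.0101). The lowest signal of git11 was 2.03 times the highest signal of a disrupted or deleted gene (2497), against 4.92 times or more for the other members, so a change of git11 may be understated.

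**Figure D1:**
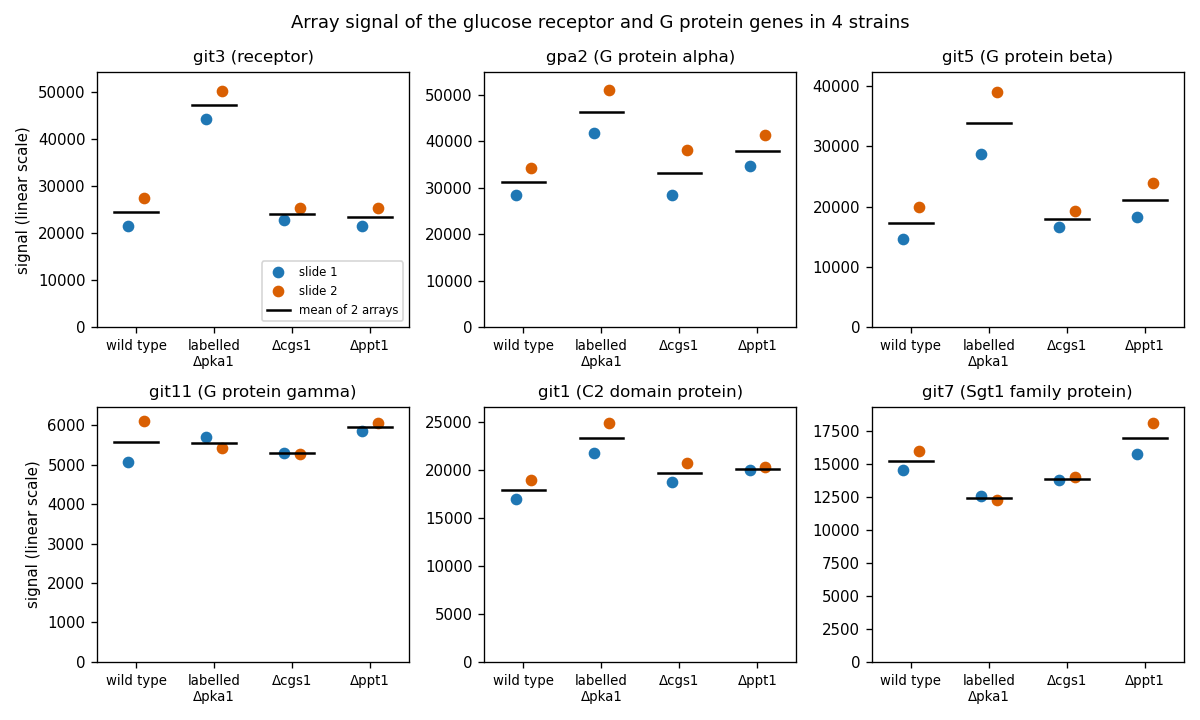
Signal of each gene on each array, on a linear axis that starts at 0, by strain. Points are arrays, coloured by slide, and bars are means of 2 arrays. The points labelled Δpka1 lie above all others for git3, gpa2, git5 and git1, while those of git7 lie below all others and those of git11 among them.

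The adenylate cyclase regulator git1 had the order of strains of gpa2 and git5, with smaller differences between the arrays labelled Δpka1 and the other strains. In wild type signal for git1 was 16899 and 18899, in Δcgs1 18670 and 20718, in Δppt1 19955 and 20239, and in the arrays labelled Δpka1 21697 and 24840. The arrays labelled Δpka1 were again above the 6 others, and Δppt1 lay above wild type and within the range of Δcgs1. The difference between the arrays labelled Δpka1 and wild type was 0.38 (SE 0.11, adjusted p = 0.0967, slide-blocked 0.00529), with 0.36 on slide 1 and 0.39 on slide 2. It was 0.24 against Δcgs1 (SE 0.11, adjusted p = 0.253, slide-blocked 0.0199) and 0.21 against Δppt1 (SE 0.11, adjusted p = 0.349, slide-blocked 0.0328). Differences of Δcgs1 (0.14, 95% interval -0.13 to 0.41) and Δppt1 (0.17, 95% interval -0.10 to 0.44) from wild type were not called in either fit.

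The co-chaperone gene git7 ran the other way. In wild type its signal was 14493 and 15967, in Δcgs1 13771 and 13966, in Δppt1 15748 and 18064, and in the arrays labelled Δpka1 12544 and 12281. The arrays labelled Δpka1 lay below all 6 others, those of Δcgs1 lay below both of wild type, and wild type overlapped Δppt1. Signal for git7 was lower in the arrays labelled Δpka1 than in Δppt1 by -0.44 on the log2 scale (SE 0.10, adjusted p = 0.0440), with -0.33 on slide 1 and -0.56 on slide 2. This call was lost in 6 of the 8 fits that left out 1 array, all but those without a wild-type array, with adjusted p up to 0.235. It was also lost with only those 2 strains in the fit (adjusted p = 0.104) and with an intensity trend in the variance (adjusted p = 0.0763). Against wild type, git7 in the arrays labelled Δpka1 differed by -0.29 (SE 0.10, adjusted p = 0.148, slide-blocked 0.0217). The difference from wild type was -0.13 in Δcgs1 (95% interval -0.38 to 0.11) and 0.15 in Δppt1 (95% interval -0.10 to 0.39), neither of them called.

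Counted over the 6 genes, 2 rose (git3 and git5) and 0 fell in the arrays labelled Δpka1 against wild type, where 4.33% of all genes were called higher, 4.13% lower and 8.46% in either direction. Their median difference was 0.47, and that of all genes -0.04. With slide as a block, git1 and gpa2 also rose and git7 fell, against a background of 38.6% called in either direction, so that count of 5 of 6 is to be read against a share of over 1 in 3 genes. Arrays of the strains did not overlap for 5 of the 6 genes, against 41.1% of all genes, and 4 of the 6 had both arrays labelled Δpka1 above all other arrays, against 9.80% of all genes. In rank, git5 and git3 lay above 97.5% and 97.4% of all genes in this comparison, gpa2 above 95.5%, git1 above 92.2%, git11 above 58.7% and git7 above 17.7%. A position in that order is a description, and many genes share it.

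In Δcgs1 against wild type, limma called 0 of the 6 genes, with or without slide as a block, and 0 had an unadjusted p under 0.05 without the block. Of all genes, 0.142% were called, or 0.830% with slide as a block, so few calls are seen in this comparison at all. The 6 differences lay between -0.13 and 0.14, with a median of 0.02 that equals that of all genes to the second decimal. All 6 intervals contained 0. The highest upper end was 0.60, for git5, so rises of the size that git3 (0.95) and git5 (0.97) had in the arrays labelled Δpka1 lie outside all 6. For gpa2 the difference of 0.57 in those arrays lies outside its own interval in Δcgs1, which ends at 0.53, while for git1 0.38 lies inside one that ends at 0.41. These intervals leave out the spread of the values set beside them. Compared directly by limma without the block, the arrays labelled Δpka1 differed from Δcgs1 by a called amount for git3 (adjusted p = 0.0108). Not called were git5 (adjusted p = 0.0530), gpa2 (adjusted p = 0.172) and git1 (adjusted p = 0.253).

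In Δppt1 against wild type, limma also called 0 of the 6 genes, and 0 had an unadjusted p under 0.05, where 1.01% of all genes were called. Differences ran from -0.06 for git3 to 0.28 for git5, and 5 of the 6 lay above 0. With slide as a block, gpa2 was called higher, where 12.9% of all genes were called in either direction. Both arrays of Δppt1 lay above both of wild type for gpa2 and git1, against 10.4% of all genes. Of the 5 genes above 0, git5, gpa2 and git1 were those that also had their highest level in the arrays labelled Δpka1. The comparisons with wild type share the wild-type arrays, so their values are only set side by side.

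The arrays labelled Δpka1 against Δcgs1 gave 1 call, git3, where 10.3% of all genes were called, and against Δppt1 they gave 2, git3 higher and git7 lower, where 9.60% of all genes were called. With slide as a block, 4 of the 6 genes were higher against Δcgs1 (41.3% of all genes called), and 4 were higher and 1 lower against Δppt1 (38.5% of all genes called). The strains' arrays did not overlap for all 6 genes in both comparisons, against 48.3% and 46.0% of all genes. All 6 genes had the same sign on both slides in these 2 comparisons.

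**Figure D2:**
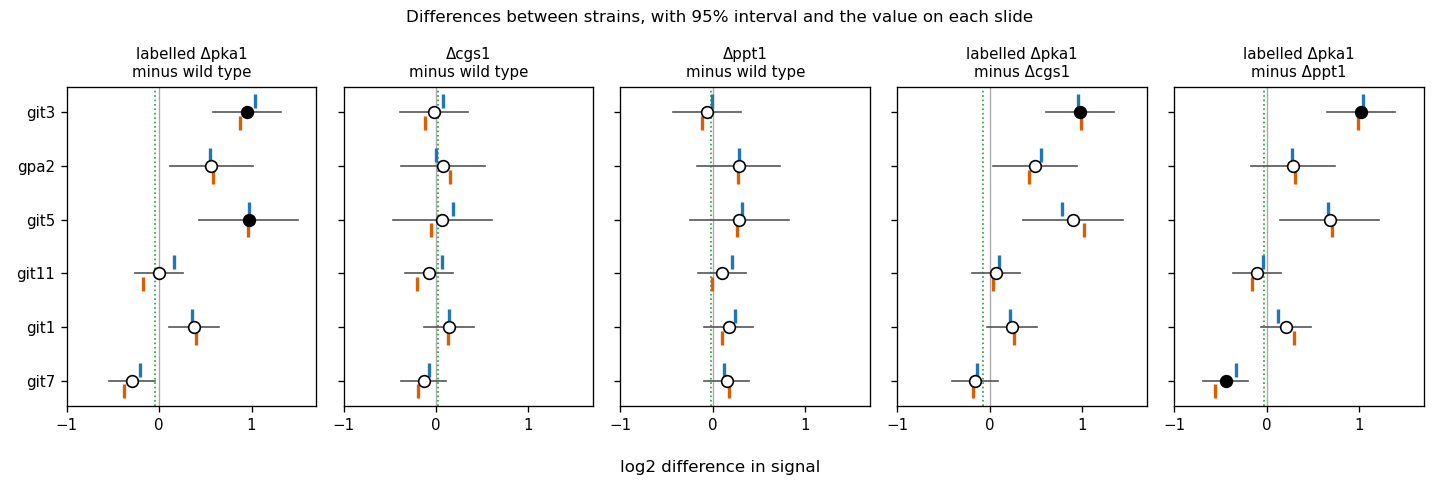
Log2 difference in signal of each gene in 5 comparisons of strains. Circles are the fitted values, filled where adjusted p lay below 0.05, grey lines their 95% intervals, coloured ticks the differences within slide 1 (blue) and slide 2 (orange), and the dotted line the median of all genes. Only git3 is filled in all 3 comparisons with the arrays labelled Δpka1, and no circle is filled in Δcgs1 or Δppt1 against wild type.

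The genes differed in how their variation was split between strain and slide. The strain means spanned 1.02 on the log2 scale for git3, 0.97 for git5, 0.57 for gpa2, 0.44 for git7, 0.38 for git1 and 0.17 for git11, against a median span of 0.26 over all genes. Slide 2 exceeded slide 1 by 0.37 for git5, 0.31 for gpa2, 0.23 for git3, 0.13 for git1, 0.08 for git7 and 0.06 for git11, and by a median of 0.18 over all genes. Taking slide into the fit brought the residual SD of git5 from 0.27 to 0.08 and that of gpa2 from 0.22 to 0.05. For git11 it stayed at 0.10. The genes with the widest slide difference, git5 and gpa2, are those whose test moved most with the block. In the arrays labelled Δpka1 against wild type, git3 and git5 were called in both fits.

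After the mean of each slide was taken off, the profiles of git3, gpa2, git5 and git1 over the 8 arrays ran together, with Pearson's r from 0.83 (git3 with git1) to 0.94 (gpa2 with git5 and git3 with git5). Profiles of git7 were opposite to these 4, with r from -0.76 with git3 to -0.50 with gpa2. That of git11 had r between -0.02 and 0.15 with the same 4, and 0.57 with git7. The 8 arrays are 4 strains on 2 slides, and the arrays labelled Δpka1 carry most of the spread, so these values describe the order of strains and are given without a test.

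Downstream of the G protein, the cAMP and PKA core was read in 5 genes, cyr1, cap1, cgs1, cgs2 and pka1. Among them 1 rose and 0 fell in the arrays labelled Δpka1 against wild type, where 8.46% of all genes were called (median 0.10, all genes -0.04). The one that rose was cgs1 (1.07, SE 0.20, adjusted p = 0.0209). The slide-blocked fit called 2 higher, cgs1 and pka1, and 1 lower, cgs2, where 38.6% of all genes were called. The adenylate cyclase gene cyr1, whose product Gpa2 activates, differed by 0.08 (SE 0.25, adjusted p = 0.928), and the phosphodiesterase gene cgs2, whose product breaks down cAMP, by -0.18 (SE 0.11, adjusted p = 0.440, slide-blocked 0.0436). In Δcgs1 against wild type the disrupted gene itself was the 1 call in this list, where 0.142% of all genes were called. In Δppt1 against wild type limma made 0 calls, with 0 genes at an unadjusted p under 0.05, where 1.01% of all genes were called.

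Of 14 regulators and outputs of PKA, 3 rose and 0 fell in the arrays labelled Δpka1 against wild type, against the same 8.46% of all genes (median 0.15, all genes -0.04). They were fbp1, the reporter gene by which git mutants were found (2.97, SE 0.14, adjusted p = 6.08e-05), ste11, the transcription factor gene of mating (1.30, SE 0.18, adjusted p = 0.00771), and the hexose transporter gene ght5 (0.88, SE 0.16, adjusted p = 0.0196). Folds of fbp1 and ght5 may be compressed, since their signal in the arrays labelled Δpka1 was near the highest on the arrays (65239). Other genes of the list were also near it, with hxk1 at 57744 to 64064, hxk2 at 63932 to 64607 and scr1 at up to 63707. A rise of these could be missed. Signal for rst2, whose product activates fbp1 when PKA is low, differed by 0.38 (SE 0.13, adjusted p = 0.136, slide-blocked 0.00263). In the slide-blocked fit 6 of the list were higher and 1 was lower, against 38.6% of all genes called, and the lower one was the co-repressor gene tup11 (-0.25, slide-blocked 0.00669). Against wild type limma called 0 of the list in Δcgs1 and 0 in Δppt1, where 0.142% and 1.01% of all genes were called. At an unadjusted p under 0.05 there were 1 and 2 genes. The slide-blocked fit called 0 in Δcgs1, where 0.830% of all genes were called. In Δppt1 rst2 was higher (0.20, slide-blocked 0.0424) and ste11 lower (-0.69, slide-blocked 0.0144), where 12.9% of all genes were called.

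Fission yeast has a second receptor and G protein pathway, that of the mating pheromones, and there 6 of 9 genes rose and 0 fell in the arrays labelled Δpka1, where 8.46% of all genes were called (median 0.74, all genes -0.04). In the slide-blocked fit 7 were higher and 1, the small GTPase gene ras1, was lower (-0.25, slide-blocked 0.0122), where 38.6% of all genes were called. The pheromone Gα gene gpa1 went from 12245 and 14555 in wild type to 27519 and 33173 (1.18, SE 0.18, adjusted p = 0.0105), beside 0.57 for the glucose Gα gene gpa2, and the 2 values were not tested against each other. The 3 largest of the others were rgs1, a negative regulator of G protein signalling (1.35, SE 0.20, adjusted p = 0.0102), ste4, an adaptor of the pheromone kinase cascade (1.26, SE 0.16, adjusted p = 0.00424), and map3, the receptor for M-factor (0.97, SE 0.17, adjusted p = 0.0165). Against wild type limma called 0 of the 9 in Δcgs1 and 0 in Δppt1, where 0.142% and 1.01% of all genes were called. At an unadjusted p under 0.05 there were 0 and 1. With slide as a block 0 were called in Δcgs1, where 0.830% of all genes were called. In that fit 2 were lower in Δppt1, where 12.9% of all genes were called. Both P-cell markers rose in the arrays labelled Δpka1 against wild type, where 8.46% of all genes were called. They were map2 (2.25) and map3 (0.97), and map3 is already counted among the 9. Limma called 0 of 4 measured M-cell markers, of which mam2 is also among the 9, in any comparison, with 0 at an unadjusted p under 0.05. Of all genes, 0.142% to 10.3% were called in these comparisons. With slide as a block 1 was called, lower in the arrays labelled Δpka1 than in Δcgs1, where 41.3% of all genes were called. Of the M-cell markers, mfm2 read at most 1942, under the highest signal of a disrupted gene (2497), mfm1 2916 to 4698, and mam1 and mam2 9217 to 13638. Signals of mfm1, mam1 and mam2 thus lay above that level on all arrays. Lack of signal did not bear out the h+ label for these genes, and the mating type is given as labelled. The part of mating genes in the rise of git3 and git5 was not tested.

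The nutrient receptor gene stm1, whose product has been linked to Gpa2, was not called in any comparison, with -0.26 in the arrays labelled Δpka1 against wild type (SE 0.13, adjusted p = 0.295). The 3 genes for partners of Git7 were the chaperone gene hsp90, the co-chaperone gene wos2 and the ubiquitin ligase subunit gene skp1. Of these, limma called 0 in the 5 comparisons, with 0 at an unadjusted p under 0.05 and 0 called with slide as a block. Over the 5 comparisons, 0.142% to 10.3% of all genes were called without the block and 0.830% to 41.3% with it. Signal of hsp90 was 62161 to 64692, near the highest on the arrays (65239), where a change could be missed, and skp1 differed by -0.08 in the arrays labelled Δpka1 against wild type (SE 0.16, adjusted p = 0.874).

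**Figure D3:**
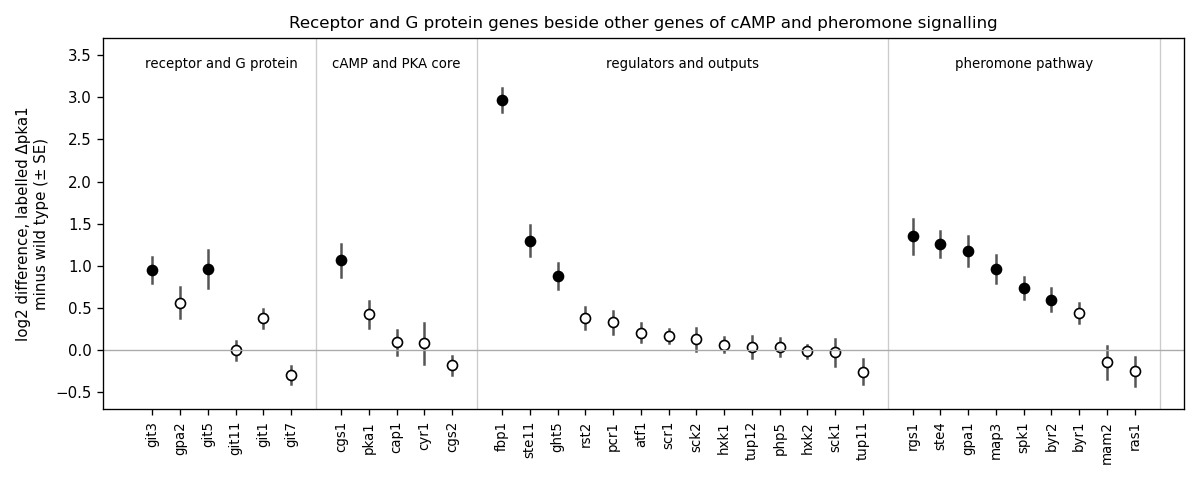
Log2 difference in signal between the arrays labelled Δpka1 and wild type for the 6 genes and for 3 lists of related genes, with bars of ± SE. Filled circles had adjusted p below 0.05. Filled are git3 and git5 among the 6, cgs1 in the cAMP core, fbp1, ste11 and ght5 among the outputs, and 6 of 9 genes of the pheromone pathway.

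Since the labelled cDNA was double-stranded, signals are not assigned to a strand, and the genes on either side of each member were read as well. Next to git3 lie ssb2 and rec7, which differed by -0.28 (adjusted p = 0.359, slide-blocked 0.0195) and -0.12 (adjusted p = 0.777) in the arrays labelled Δpka1 against wild type, neither in the direction of git3. Next to git5, omh5 fell (-0.62, SE 0.14, adjusted p = 0.0417), and mug93 differed by 0.54 (SE 0.14, adjusted p = 0.0692, slide-blocked 0.0298). The neighbours of gpa2, SPAC23H3.12c and avl9, differed by -0.17 and -0.10. Next to git1, rtc3 rose by 1.65 (SE 0.12, adjusted p = 0.000393), and in Δppt1 by 0.86 (SE 0.12, adjusted p = 0.0318), while cxr1 differed by 0.40 (SE 0.15, adjusted p = 0.175, slide-blocked 0.00594). The neighbours of git11, pfd5 and gpd1 (glycerol-3-phosphate dehydrogenase), differed by -0.22 and 0.02, and those of git7, SPBC36.11 and ubp15, by 0.23 (adjusted p = 0.478, slide-blocked 0.172) and 0.28 (adjusted p = 0.297, slide-blocked 0.0164), both against the direction of git7.

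For the genes with a call, the genes with the most similar profile were looked up over the 8 arrays, each slide's mean taken off, among named genes whose strain means spanned at least 0.5. Closest to git3 among 737 such genes were mug14, ddr48 and lsd90, each with r = 0.998 or 0.997. Their differences between the arrays labelled Δpka1 and wild type were 4.30, 3.60 and 4.11, and in the other strains they differed from wild type by -0.50 to 0.07. All 3, like git3, were highest under the Δpka1 label and lowest in Δppt1, while ddr48 was higher in Δcgs1 than in wild type (0.07) and git3 was not (-0.02). Closest to git5 were nem1 (r = 0.995), fun14 (r = 0.994) and mug147 (r = 0.993), which had 0.78, 1.10 and 2.31 in that comparison and 0.25, 0.24 and 0.72 in Δppt1 against wild type. Closest to git7 among 738 genes were ptf2 (r = 0.991), tma20 (r = 0.975) and the flocculin gene gsf2 (r = 0.968). Against wild type these differed by -0.40, -0.36 and -0.89 under the Δpka1 label, and by 0.32, 0.15 and 0.26 in Δppt1. With 4 strains, high values of r arise easily, and they are given as a description.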

How the data were processed

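The deposited tables give, per the file headers, 1 summarised intensity per gene and array, on a linear scale. Neither labels nor headers say how the authors summarised probes or normalized arrays. The deposited error column was not used in tests. Each of the 6 genes had 14 probes. The series value table held the same values as the arrays (largest difference 0). A random-sequence control was left out. RefSeq locus tags named 4913 of 4940 genes. The files name no build, so no positions are given. After a log2 transform, limma 3.58.1 in R 4.3.3 fitted a mean for each strain over all 8 arrays (4 residual degrees of freedom). Two-sided p-values were adjusted over the 4940 genes by Benjamini-Hochberg, and a call is an adjusted p under 0.05. Same-numbered arrays share a slide per the labels' titles, and their deviations from strain means were correlated in all 6 pairs of strains (r from 0.351 to 0.690), so slide was also fitted as a block (3 residual degrees of freedom). Data of 4940 genes were simulated for the arrays labelled Δpka1 against wild type, with 100 genes changed by 1 and 100 by 0.5 (log2). Of these, 73% and 19% were called without the block, and 96% and 70% with it, with 0 and 9 unchanged genes called. The simulated slide difference was equal in all strains and the noise had the SD left after the slide fit, so the gain with the block was built in. Recovery on the real arrays may differ. The number of arrays limits the precision. The members, lists and tests were chosen with earlier results of these data known. All 6 members are named, and list genes where called (up to 4 by size). Some list genes without a call were added after their values were seen. Their products act directly on the G protein pathway or near it, or they were called only with the block or read near the highest signal. Neighbours in RefSeq gene order, and the 3 genes most alike each called member, are also named. The gene mfm3 was not analysed here.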

Additional observations from a re-analysis of the deposited data

How the results depend on the processing

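The rise of git3 was called under all 7 alternatives that kept the 8 arrays or the arrays compared, in each of its 3 comparisons (log2 0.95 to 1.06). With slide as a block (a pairing of same-numbered arrays), the members called were 5 in the arrays labelled Δpka1 against wild type, 1 in Δppt1 against wild type, 4 against Δcgs1 and 5 against Δppt1, and the genes called were 1908, 636, 2041 and 1903, and 41 in Δcgs1 against wild type. In the same order of 4 comparisons, then Δcgs1, genes called were 1439, 338, 1435, 1436 and 39 with median centring, 1809, 698, 1844, 1838 and 69 with quantile normalization, and 1733, 642, 1734, 1799 and 63 with cyclic loess. With these 3 settings in turn, members called in the arrays labelled Δpka1 were 4, 4 and 4 of 6 against wild type (29.1%, 36.6% and 35.1% of all genes). They were 4, 5 and 5 against Δcgs1 (29%, 37.3% and 35.1% of all genes), and 4, 4 and 5 against Δppt1 (29.1%, 37.2% and 36.4%). In Δppt1 against wild type, 1 member was called with the last 2 settings (14.1% and 13% of all genes). Without the lowest 20% of signals, which took out git11, members called in the arrays labelled Δpka1 were 1 of 5 against wild type, 1 against Δcgs1 and 2 against Δppt1. Of the 3952 genes left, 232 (5.87%), 272 (6.88%) and 298 (7.54%) were called there. Against wild type, 24 genes (0.607%) were called in Δppt1 and 2 (0.0506%) in Δcgs1. With only the strains compared, members called in the arrays labelled Δpka1 were 1 against wild type, 2 against Δcgs1 and 1 against Δppt1. Genes called were, in the same order, 236 (4.78%), 480 (9.72%) and 449 (9.09%). Against wild type, 24 genes were called in Δppt1 and 3 in Δcgs1. With an intensity trend, members called in the arrays labelled Δpka1 were 2 against wild type, 2 against Δcgs1 and 1 against Δppt1. Genes called there were 510 (10.3%), 578 (11.7%) and 542 (11%). Against wild type, 86 genes were called in Δppt1 and 15 in Δcgs1. The cause of these shifts was not tested. Leaving out 1 array, with the lone array of its strain taken to vary like the others, gave 0 to 1 members and 181 to 387 genes in the arrays labelled Δpka1 against wild type, 0 to 2 members and 201 to 592 genes against Δcgs1, 0 to 2 members and 250 to 504 genes against Δppt1, 13 to 33 genes in Δppt1 and 2 to 6 in Δcgs1 against wild type, the last 2 with 0 members. Signs of small differences turned when arrays were left out. They ran from -0.13 to 0.13 for git11 in the arrays labelled Δpka1, from -0.19 to 0.16 for git3, -0.13 to 0.29 for gpa2, -0.15 to 0.29 for git5 and -0.21 to 0.058 for git11 in Δcgs1, and from -0.24 to 0.11 for git3 and -0.033 to 0.23 for git11 in Δppt1. For git11 in the arrays labelled Δpka1 against wild type, the sign also turned with median centring (0.0051), quantile normalization (0.10) and cyclic loess (0.14).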
